A study of Oryza sativa with 6 samples.

Results

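The 5 genes followed here act in the control of flowering time in rice: the florigen gene *Hd3a*, the floral promoter *Ehd3*, and the phytochrome genes *PhyB*, *phyC* and *PHY18*, the last of which carries *PHYA* as a synonym in the gene table. Their probe sets were found by gene symbol or synonym, and the genes were chosen with earlier results of these arrays known. They are 5 of the 17905 genes that the array annotation pairs with at least 1 probe set. The 6 Affymetrix rice arrays held leaf RNA of *Oryza sativa* subsp. *indica* var. PB1, 3 arrays from WT plants and 3 from MADS29OX plants. MADS29OX plants carry the *OsMADS29* cDNA, which encodes a MADS-box transcription factor known for its role in the developing seed, behind the maize ubiquitin promoter, which is active in most tissues. The leaves were the 3rd and 4th counted from the flag leaf. The authors describe MADS29OX plants as severely stunted and early to flower, and a difference in growth stage between the groups was not tested. Only few transgenic plants were regenerated, and the sources used here do not say whether the MADS29OX samples come from different lines or plants, nor the plant age or the hour of harvest. The p-values then measure only the spread between these samples.

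Florigen is a small mobile protein of the FT family. In rice *Hd3a* is transcribed in the vascular tissue of the leaf, and the protein travels to the shoot apex, where it binds 14-3-3 proteins and a bZIP factor of the FD type and switches on MADS-box genes such as *MADS14* and *MADS15*. *Ehd3* encodes a PHD-finger protein that promotes flowering upstream of florigen. Phytochromes are red and far-red light receptors with a bilin chromophore, and in rice loss of phyB raises *Hd3a* and brings flowering forward, while phyC protein depends on phyB for its stability.

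Each value is the linear intensity of 1 probe set. Intensities below a floor of 16 were raised to 16 before log2 was taken, and a call required both a limma adjusted p no higher than 0.05 and a 2-fold difference between the groups. A gene with several probe sets is represented by the brightest one, here its main probe set. Of 10045 genes tested, 507 (5.05%) were called higher and 505 (5.03%) lower in MADS29OX leaves, together 10.1%, and of 14238 probe sets 1409 (9.90%) were called. *OsMADS29* itself read 6.70, 6.37 and 6.64 on the WT arrays and 2016, 1788 and 3590 on the MADS29OX arrays, at least 7.20 higher on the log2 scale (adjusted p = 0.000139, limma). The MADS29OX arrays were more spread than the WT arrays. Pairwise correlations were 0.936 to 0.969 among MADS29OX arrays and 0.992 to 0.997 among WT arrays. All 5 measured leaf markers (*RBCS*, *RCA*, *CAB2R*, *PSAG* and *PORB*) were above the floor, with summed intensities of 21235 to 21427 in WT and 22514 to 29951 in MADS29OX. Of 10 flower and meristem markers, 9 were at the floor on all arrays, and the exception was *MADS16*.

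*Hd3a* transcript rose in MADS29OX leaves, from the background level of the array to a clear signal. Its single probe set read 7.93, 9.01 and 7.98 on the WT arrays, a mean of 8.30 ± 0.611 (SD, n = 3). On the MADS29OX arrays it read 49.9, 86.7 and 57.7, a mean of 64.7 ± 19.4 (SD, n = 3). Every MADS29OX array was above every WT array, and all WT readings were below the floor. The fitted difference was 1.98 on the log2 scale (SE 0.21, 95% interval 1.46 to 2.49), so that *Hd3a* was at least 3.93-fold higher (adjusted p = 0.00207, limma). The exact 2-sided permutation test of the 3 against 3 arrays gave p = 0.1, the smallest value this design allows.

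The *Hd3a* call did not rest on 1 array. With each array left out in turn the difference lay between 1.75 and 2.14 on the log2 scale, with the highest adjusted p at 0.0168 in limma. Over the alternative settings that used all 6 arrays, its size depended on how the WT background readings were treated. It was 2.92 with no floor and 1.71 when 16 was added to every value, and *Hd3a* was called at both. MADS29OX replicate 2 gave the highest reading and replicate 1 the lowest, a ratio of 1.74 within the group, against 1.14 within WT.

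The other FT-like genes measured belong to the MFT branch, known in other plants for roles in seed germination. *MFT1* read 19.1, 18.9 and 16.6 in WT and 5.67, 7.23 and 6.56 in MADS29OX. It thus stood just above the floor in WT and below it in MADS29OX, and was not called (log2 difference -0.18, SE 0.09, adjusted p = 0.183, limma), although without the floor it was called lower at -1.49. *MFT2* was at the floor on every array.

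None of the measured genes known to act with florigen or after it was called higher with all 6 arrays. The arrays held leaf RNA, so the response to florigen at the shoot apex was not measured. Of 10 measured partners and targets, 9 were tested, 0 were called higher, 2 were called lower (*MADS14* and *MADS18*), and 5 passed the adjusted p below the 2-fold limit. Over all tested genes 5.05% were called higher, 5.03% lower, and 1655 of 10045 passed the adjusted p below 2-fold. *MADS14*, a MADS-box gene of the AP1/FUL group that florigen switches on at the apex, read 530.5, 488 and 572 in WT and 115, 148 and 37.8 in MADS29OX. Its groups did not overlap, and the log2 difference was -2.62 (SE 0.51, adjusted p = 0.0151, limma). Dropping any single WT array left the log2 difference at -2.67 to -2.56 but took the adjusted p to between 0.0594 and 0.0647. With 16 added to every value the difference was -2.38 with an adjusted p of 0.105 in limma.

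*MADS18*, of the same group, read 509, 479 and 487 in WT and 200.5, 258 and 139 in MADS29OX. Its log2 difference was -1.35 (SE 0.22, adjusted p = 0.00910, limma), and it too was not called when 16 was added (adjusted p = 0.0821). *MADS15* read 60.9, 56.9 and 21.1 in WT, so that replicate 3 stood well below the other two. All of its MADS29OX readings, 7.86, 7.87 and 6.18, were below the floor, and with an adjusted p of 0.0582 in limma it was not called, but it was called lower without WT replicate 3 and with no floor. *MADS34* was at the floor on all arrays. In these bulk samples, fewer cells of a type and less RNA per cell cannot be told apart.

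The 14-3-3 genes, which encode the florigen receptors of the apical cell and many other phosphoprotein-binding partners, differed in both directions, all by less than 2-fold with all 6 arrays. *GF14C*, whose product is a known Hd3a partner in rice, read 524, 506 and 503 in WT and 684, 1030 and 898 in MADS29OX, a log2 difference of 0.75 (SE 0.16, adjusted p = 0.0203, limma). *GF14B* was 0.93 higher on the log2 scale (adjusted p = 0.0231), and without MADS29OX replicate 2 it was called higher at 1.13 (adjusted p = 0.00399). *GF14E* was lower, with 317, 315 and 336 in WT and 208, 171 and 186 in MADS29OX, a log2 difference of -0.78 (adjusted p = 0.00363). *GF14F* and *GF14D* also passed the adjusted p with lower values, and *GF14A* differed by -0.01 on the log2 scale. Since the family holds near-identical sequences, how much of each signal comes from the other members was not tested.

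*Ehd3* changed little. Its main probe set read 28.2, 30.1 and 31.4 in WT (29.9 ± 1.59, SD, n = 3) and 33.3, 38.0 and 32.7 in MADS29OX (34.7 ± 2.91, SD, n = 3). The MADS29OX arrays were all above the WT arrays, with a gap between the groups smaller than the spread within either. The log2 difference was 0.21 (SE 0.09, 95% interval -0.02 to 0.45), and with an adjusted p of 0.161 in limma *Ehd3* was not called. A larger change was seen in 59.6% of the genes tested. Its other probe sets, which read 11.6 to 15.8 and 6.27 to 6.40, were below the floor on all arrays and carry no test, so the value rests on 1 of 3 probe sets.

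Among the other genes of floral induction the calls went both ways. Of 14 genes of this list with a probe set, *Ehd3* included, 11 were tested, 2 were called higher (*GI* and *PRR37*) and 2 lower (*MADS50* and *MADS56*). The shares over all tested genes were 5.05% higher and 5.03% lower, and the list was chosen with earlier results of these arrays known. *GI*, a clock output gene that acts upstream of *Hd1* and *Hd3a*, read 79.6, 83.7 and 91.5 in WT and 573, 369 and 424 in MADS29OX. This is 5.28-fold higher, 2.40 on the log2 scale (SE 0.18, adjusted p = 0.000631, limma), and the call held with any 1 array left out. *PRR37*, a pseudo-response regulator that delays flowering in long days, read 128, 118 and 141 in WT and 242, 315 and 232 in MADS29OX. Its log2 difference of 1.02 (SE 0.14, adjusted p = 0.00540, limma) lay at the 2-fold limit, and it fell below that limit without WT replicate 2 (0.96) or without MADS29OX replicate 2 (0.88).

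*MADS50*, a floral activator of the SOC1 group, read 43.3, 39.7 and 56.3 in WT and 6.89, 6.59 and 5.99 in MADS29OX. It was at least 2.87-fold lower (adjusted p = 0.00138, limma). Its relative *MADS56* read 58.6, 56.5 and 53.9 in WT against 7.36, 7.12 and 7.35, at least 3.52-fold lower (adjusted p = 0.000159, limma). Both genes thus went from a detectable level in WT to the floor on all MADS29OX arrays, the opposite pattern to *Hd3a*.

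*Hd1*, the rice CONSTANS homologue that acts directly upstream of *Hd3a*, was below the floor on all arrays (6.35 to 9.20), as were *DTH8* and *LFL1*. A change in these genes was not detectable at this signal. *Ehd4* (log2 difference -0.26, adjusted p = 0.188, limma), *TRX1* (0.01, adjusted p = 0.962) and *NF-YC6* (0.20, adjusted p = 0.270) were not called. *HD16*, a casein kinase that delays flowering in long days, and *NF-YC4*, a CCAAT-box subunit, were lower by less than 2-fold, at -0.43 (adjusted p = 0.0167) and -0.66 (adjusted p = 0.00378) on the log2 scale. *Ehd1* and *Ghd7*, through which *Ehd3* is known to act, had no match in the gene table by symbol or synonym and were not analysed here.

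**Figure D1:**
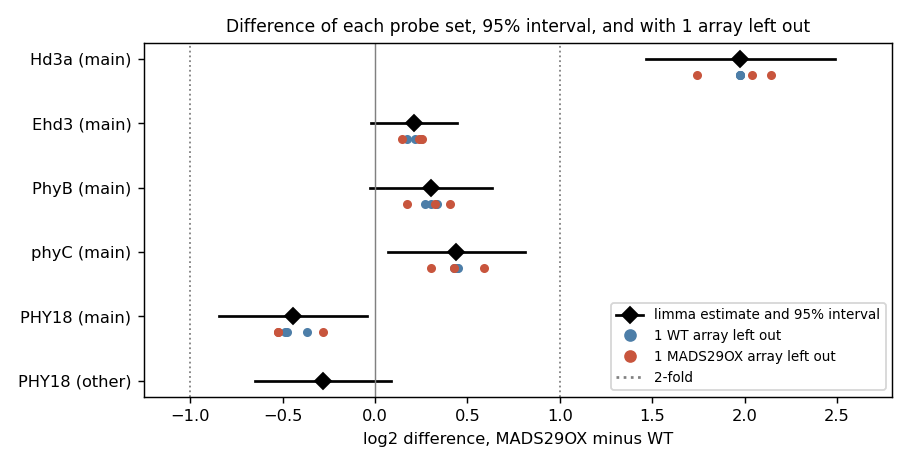
Log2 difference between MADS29OX and WT for each tested probe set of the 5 genes, with its 95% limma interval (diamonds and lines) and the estimates with 1 array left out (points). *Hd3a* stays between 1.75 and 2.14 with any array left out, and the other genes stay inside the dotted 2-fold lines.

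None of the phytochrome genes was called. *PhyB* and *phyC* read higher in MADS29OX leaves and *PHY18* lower. *PhyB* read 77.9, 81.2 and 85.4 in WT (81.5 ± 3.73, SD, n = 3) and 97.4, 119.9 and 86.9 in MADS29OX (101.4 ± 16.9, SD, n = 3). MADS29OX replicate 3 was barely above the highest WT array. The log2 difference was 0.30 (SE 0.13, 95% interval -0.03 to 0.63, adjusted p = 0.158, limma).

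*phyC* read 55.3, 53.8 and 55.2 in WT (54.8 ± 0.823, SD, n = 3). In MADS29OX it read 89.6, 75.7 and 60.5 (75.3 ± 14.5, SD, n = 3), with replicate 1 highest and replicate 3 nearest to WT. The log2 difference was 0.44 (SE 0.15, 95% interval 0.07 to 0.81), a 1.36-fold higher level, with an adjusted p of 0.0853 in limma. The adjusted p passed its threshold without MADS29OX replicate 3 (0.59 on the log2 scale, adjusted p = 0.0215) and with median centring of the arrays (adjusted p = 0.0490), still below 2-fold in both.

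*PHY18*, the phytochrome A gene, whose product acts in far-red light and in seedlings moving from dark to light, read 165, 192 and 162 in WT (173 ± 16.2, SD, n = 3). In MADS29OX its main probe set read 142, 101 and 142 (128 ± 23.6, SD, n = 3), so that every MADS29OX array was below every WT array and replicate 2 was lowest. The log2 difference was -0.44 (SE 0.16, 95% interval -0.84 to -0.04), and with an adjusted p of 0.100 in limma it was not called. The other probe set read 48.3, 45.5 and 50.5 in WT and 48.8, 37.3 and 34.0 in MADS29OX. There the groups overlapped, since MADS29OX replicate 1 lay within the WT range, and the log2 difference was -0.28 (SE 0.15, adjusted p = 0.226).

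For light receptors and light signalling 37 symbols were sought, synonyms included, and 8 genes were found in the gene table. The cryptochromes, among others, had no match and were not analysed here. Of 7 measured genes of this list, the 3 phytochromes included, 6 were tested and 0 were called in limma. At the adjusted p alone, with no fold limit, 1 of them passed, beside 26.6% of all genes (11.4% higher and 15.1% lower). This was the phototropin gene *PHOT1A*, for a blue-light receptor, which read 547, 549 and 597 in WT and 990, 877 and 945 in MADS29OX (log2 difference 0.73, SE 0.09, adjusted p = 0.00291, limma). *PHOT2*, the other phototropin, read 924, 957 and 1052 in WT and 696, 935 and 715 in MADS29OX, with overlapping groups (adjusted p = 0.137). *SE5*, the heme oxygenase that makes the phytochrome chromophore, read 786, 763 and 830 in WT and 582, 733 and 764 in MADS29OX, again with an overlap (log2 difference -0.20, adjusted p = 0.285).

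Across the 5 genes, 1 was called, *Hd3a*, and it was called higher, where 5.05% of all tested genes were. On all 5 main probe sets the groups did not overlap, 4 with MADS29OX above and 1 with it below. Over all genes tested, groups did not overlap in 45.9%, with MADS29OX above in 20.5% and below in 25.4%, so a lack of overlap is common on these arrays. The MADS29OX arrays did not rank alike from gene to gene. Replicate 2 was highest for *Hd3a*, *Ehd3* and *PhyB* and lowest for *PHY18*, while replicate 1 was highest for *phyC*. The highest MADS29OX array exceeded the lowest by 1.16 to 1.74 times across the genes, against 1.03 to 1.18 times in WT.

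Together the flowering, light and clock lists named 45 genes in the gene table, of which 38 had a probe set and 31 were tested. Of these, 3 were called higher (*Hd3a*, *GI* and *PRR37*) and 5 lower (*MADS14*, *MADS18*, *MADS50*, *MADS56* and *LHY*). The other 23 were not called, 9 of them past the adjusted p but below 2-fold. Over all genes tested, 10.1% were called, and 1655 of 10045 passed the adjusted p below 2-fold. The median log2 difference of the tested list genes was -0.19, and -0.01 over all genes tested, and the median size of the difference was 0.54 against 0.29. The lists include the 5 genes and were chosen with earlier results of these arrays known, so these medians are a description and not a test.

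**Figure D2:**
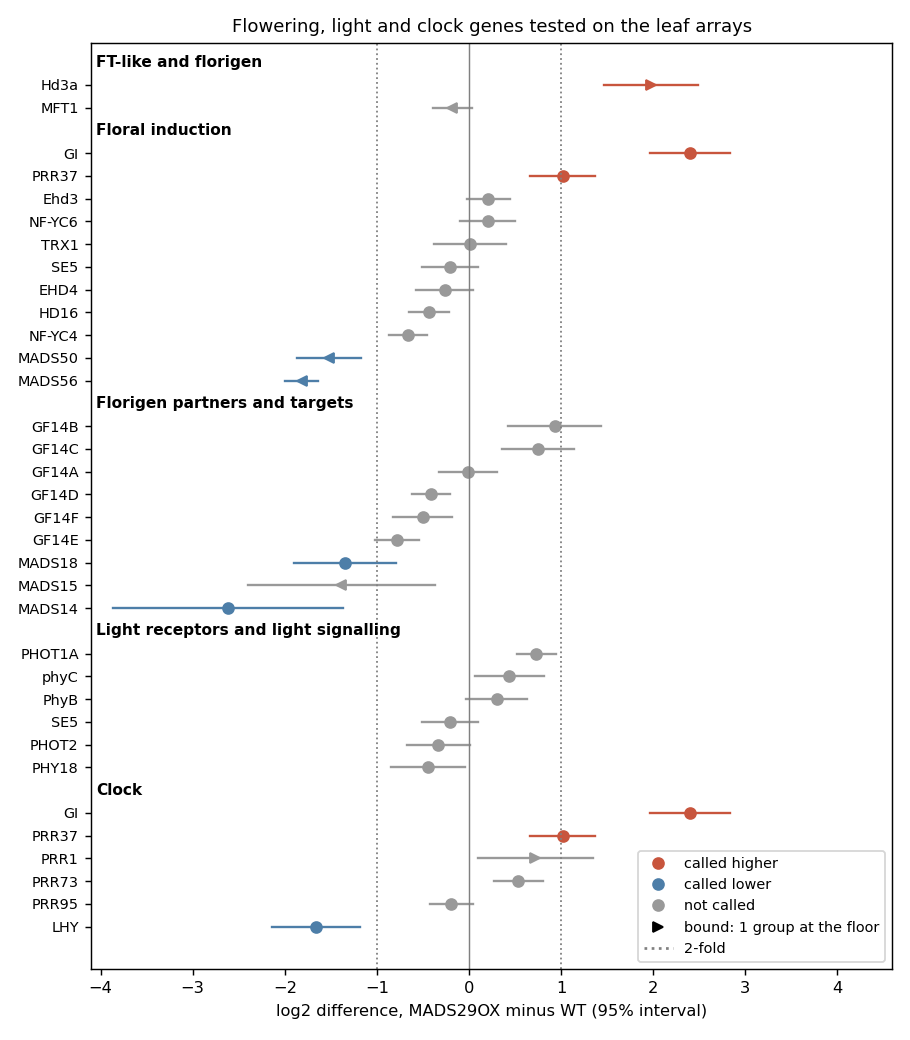
Log2 difference between MADS29OX and WT, with its 95% limma interval, for the 31 tested genes of flowering, light sensing and the clock, by list (*GI*, *PRR37* and *SE5* stand in more than 1 list); triangles mark bounds where a group was at the floor. *Hd3a*, *GI* and *PRR37* lie on the right in the colour of called higher, and *MADS14*, *MADS18*, *MADS50*, *MADS56* and *LHY* on the left in that of called lower.

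Some clock genes also differed between the groups. Since no hour of harvest is given, a difference in time of day between the groups was not tested. Of 7 measured clock genes, 6 were tested, and beside *GI* and *PRR37*, called higher, *LHY* was called lower. The other 3 were not called, and over all tested genes 10.1% were called in either direction. *LHY*, a morning-phased clock factor, read 4096, 4033 and 4396 in WT and 1406, 1645 and 988 in MADS29OX, a log2 difference of -1.66 (SE 0.19, adjusted p = 0.00286, limma). *PRR73* was 0.54 higher on the log2 scale (adjusted p = 0.0170, limma). *PRR1*, an evening-phased pseudo-response regulator, read 10.7, 13.7 and 13.5 in WT and 32.9, 17.5 and 31.9 in MADS29OX (adjusted p = 0.0900, limma), and was called higher, among the alternatives run, only without MADS29OX replicate 2 and with no floor. *PRR95* differed by -0.19 on the log2 scale.

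Markers of other tissues were read beside the lower MADS-box genes. *MADS16*, a petal and stamen identity gene, read 71.7, 68.5 and 67.0 in WT and 28.4, 38.8 and 23.0 in MADS29OX (log2 difference -1.23, adjusted p = 0.00770, limma). The 10 flower and meristem markers summed to 118 to 123 in WT and 73.1 to 89.3 in MADS29OX, but the other 9 were at the floor, so the sum moved with *MADS16* alone. The 6 seed storage genes summed to 104 to 107 and 84.3 to 95.6, where 5 were at the floor and *GLUA2*, the exception, was not called (log2 difference -0.32, adjusted p = 0.0527, limma). Both root markers were at the floor on all arrays. Among leaf markers, *CAB2R* and *PORB*, a chlorophyll-binding protein and an enzyme of light-dependent chlorophyll synthesis, were called higher and *PSAG*, a photosystem I subunit, lower. The part of tissue makeup in the results for *Hd3a*, *MADS14* and *MADS18* was not tested.

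**Figure D3:**
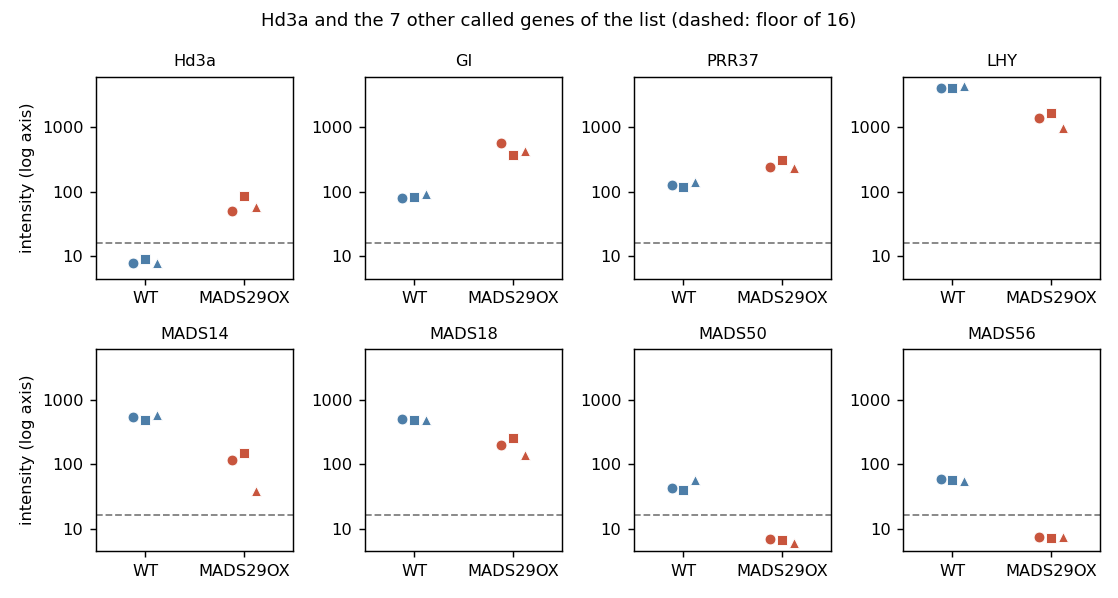
Intensity on a log axis, array by array, of the genes called in the flowering, light and clock lists; circles, squares and triangles are replicates 1, 2 and 3, and the dashed line is the floor of 16. *Hd3a* crosses the floor upward, from 7.93 to 9.01 in WT to 49.9 to 86.7 in MADS29OX, and *MADS50* and *MADS56* cross it downward.

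For the 4 genes above the floor on all arrays, the profile over the 6 arrays was compared with those of 1236 named genes, as the root mean square difference of log2 values centred on the WT mean. Closest to *phyC* was *HXK5*, a hexokinase gene, at 0.037, followed by *RMR1* at 0.050 and *C3H44* at 0.067. *HXK5* read 39.2, 36.6 and 36.8 in WT and 59.2, 50.4 and 41.6 in MADS29OX, with the same order of the MADS29OX arrays as *phyC*. Closest to *PhyB* were *CDKC-1*, a cyclin-dependent kinase gene, at 0.054, *Trxy*, a thioredoxin gene, at 0.056 and a chaperonin gene at 0.074. *Ehd3* was nearest to *CASTOR*, an ion channel gene of root symbiosis, at 0.055, *GRXS4*, a glutaredoxin gene, at 0.065 and *ARP7*, an actin-related protein gene, at 0.066. *PHY18* was nearest to *RIC1* at 0.078, *KIN13A*, a kinesin gene, at 0.085 and *WRKY51* at 0.096. None of these 12 genes was called. No such list is given for *Hd3a*, whose WT readings were all below the floor.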

How the data were processed

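The authors deposited 57381 probe set intensities per array on a linear scale for 6 leaf arrays, 3 WT and 3 MADS29OX. How they were scanned, background-corrected, normalized and summarized was not given in the sources used here. Array medians were 5.95 to 6.00, and 21.6 to 21.9% of probe sets per array were above 16. After removal of 123 control probe sets, 16 replaced every lower value and intensities were put on the log2 scale. Those 14238 probe sets that exceeded 16 on 1 or more arrays were fitted with limma 3.58.1 (lmFit, eBayes) in R 4.3.3, on group alone, with Benjamini-Hochberg adjustment over the tested probe sets. The fit was also run on simulated data, and the outcome of those runs is not reported here. Exact permutation tests and figures used Python 3.11.15. Precision is limited by how few arrays there are.

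The platform annotation gave 1 gene for 22436 probe sets, several for 95, and did not list 34850, unnamed here. The 17905 genes were named through the gene table of assembly ASM3414082v1. The 5 genes, the lists and the tests were chosen with earlier results of these data known. List genes were matched by symbol or synonym, and *RCN1*, *IDS1* and *PAP2*, caught through a shared synonym, were removed. Named were the 5 genes, *OsMADS29*, every called list gene, for a list without calls the 2 tested genes of highest mean, and the 3 most alike named genes. The other list genes were named after their values were seen. A planned search of promoters for motifs was not run, and no sequences or coordinates were used here.

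Alternatives were another treatment of the floor, another filter, quantile normalization, median centring, array weights, a replicate block, averaged probe sets per gene, leaving out cross-hybridizing probe set types, leaving out each array, no fold limit, and an adjustment over all probe sets. Not every list gene is reported here.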

Additional observations from a re-analysis of the deposited data

How the results depend on the processing

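*Hd3a* was called higher, and *Ehd3*, *PhyB*, *phyC* and *PHY18* were not called, under every alternative run with the 2-fold limit, the arrays left out in turn included. No difference of the 5 genes changed direction. *Ehd3* ranged from 0.14 to 0.25, *PhyB* from 0.18 to 0.41, *phyC* from 0.31 to 0.59 and *PHY18* from -0.53 to -0.28 on the log2 scale. The count of called genes was 431 (191 higher, 240 lower) when 16 was added to every value and 2667 (1148 higher, 1519 lower) with no fold limit, against 1012. That of called flowering, light and clock genes was 5 (2 higher, 3 lower) and 17 (7 higher, 10 lower), against 8. Leaving out 1 array gave 783 to 1224 called genes, 6 to 9 called list genes and 1 to 1 called among the 5 genes. No sign was seen that the replicate numbers pair the samples. Same-numbered samples correlated in their deviations at 0.034, -0.045 and -0.127, and samples of unlike number at -0.096 to 0.178. With so few arrays per group these correlations do not settle whether the samples were paired. With the replicate block 946 genes were called, 8 of them in the lists and 1 of them, *Hd3a*, among the 5 genes. The adjustment over all probe sets, chosen after seeing the data, left 784 called genes and ended the *MADS14* call (adjusted p = 0.0606, limma). *PRR37* fell below 2-fold with array weights (0.95) and with its probe sets averaged (0.72), and missed the adjusted p with 16 added (0.0518, limma). The fit with no filter was not run, because values at the floor on all arrays have no variance. Since *Hd3a* was below the floor in WT, the size of its change depends on the floor.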
